A study of Mus musculus with 12 samples.

Results

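Liver tumors with a mutated Ctnnb1 gene were compared with liver tumors without one by RNA sequencing. Ctnnb1 encodes β-catenin, and the class of each tumor was taken from the mutations that the study found by exome sequencing and not from RNA levels. T-HCC662 and T-HCC663 carried activating missense mutations of Ctnnb1 and made up 2 of the 6 tumors, while the 4 other tumors were T-HCC941 and T-HCA992 together with TCi-HCC981 and TCi-HCA984. The series held 12 samples in all. By the same exome results, T-HCC941 carried an Egfr mutation, TCi-HCC981 an Hras mutation, and T-HCA992 and TCi-HCA984 neither. TCi-HCC981 also carried a missense mutation of Rnf43, a gene described below among the Wnt feedback genes. All 6 mice were aged, ate a standard diet and carried 1 p21 (Cdkn1a) allele that also expressed telomerase reverse transcriptase together with an mCherry reporter. In p21+/Tert mice (labelled p21Tert) the enzyme was active, and in p21+/TertCi mice (labelled p21TertCi) it was catalytically inactive. Both Ctnnb1-mutated tumors and 2 of the others (T-HCC941 and T-HCA992) came from p21+/Tert mice, and TCi-HCC981 and TCi-HCA984 came from p21+/TertCi mice. Each tumor came from a different mouse. There were also 6 libraries of non-tumoral liver, of which 5 carry the number of a tumor's mouse, while the label of 1 p21+/Tert liver gives a number that matches no tumor. That liver was taken as the one of the mouse of T-HCC662 because no other was left, which is an assumption, and the fit of each tumor against its own liver rests on it. No p21+/TertCi tumor with a Ctnnb1 mutation was analysed here. T-HCC663 is an adenoma in the study's histology list although its name says carcinoma.

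β-catenin is the effector of canonical Wnt signaling. Without Wnt it is phosphorylated by a complex built on Axin and Apc and degraded, and mutations at the phosphorylated residues let it accumulate and act with TCF/LEF factors in the nucleus. In the liver lobule this pathway is most active in hepatocytes around the central vein, where it maintains glutamine synthesis and drug metabolism, and it is low around the portal tract, where urea and glucose are made. Many of its targets, such as Axin2, Nkd1, Notum, Rnf43 and Znrf3, encode inhibitors of the pathway and so form a negative feedback.

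The total gene count was 17471387 to 26170661 in the tumors and 14571716 to 23932529 in the livers. Values are CPM, read counts relative to the library size after TMM scaling. Values of the mutated tumors are given as T-HCC662 before T-HCC663, those of the others in the order T-HCC941, T-HCA992, TCi-HCC981, TCi-HCA984, and those of the 6 livers as the lowest, median and highest. In bulk tissue, fewer cells of a type and less RNA per cell cannot be told apart. Adjusted p-values are Benjamini-Hochberg values of edgeR's quasi-likelihood test between the 2 classes over all 14768 genes tested, and a gene was called at an adjusted p under 0.05. Because the samples of a class are different mice, the spread in these tests is between animals, but only 2 animals stand for the Ctnnb1 class.

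Of the 14768 genes tested, 387 (2.62%) were higher and 379 (2.57%) were lower in the Ctnnb1-mutated tumors. The median log2 fold change of all genes was -0.02. Both Ctnnb1-mutated tumors lay above every non-tumoral liver for 1984 genes (13.4%) and below every liver for 1739 (11.8%), and the corresponding counts for the 4 other tumors were 1360 (9.21%) and 1082 (7.33%). For 92 genes (0.623%) the Ctnnb1-mutated tumors lay above and the other tumors below all livers, and for 68 (0.46%) the reverse held. Of the 387 higher genes, 177 had both Ctnnb1-mutated tumors above every liver without all other tumors being below every liver. For 87 all other tumors were below every liver without both Ctnnb1-mutated tumors being above, and for 73 both held. Of the 379 lower genes, these counts with above and below exchanged were 127, 162 and 46. Genes with both classes outside the livers on the same side were not set apart in these counts.

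These counts changed when single libraries were left out and when genotype entered the model. Fewer samples or an added term also leave less power to call genes, and the part of each was not tested. With genotype as a covariate, 50 genes were higher and 82 lower, and 124 of the 766 calls were shared. Within p21+/Tert tumors alone (2 against 2) the counts were 182 and 212, with 287 shared. They were 50 and 40 without T-HCC662, 97 and 90 without T-HCC663, 195 and 203 without T-HCC941, 108 and 133 without T-HCA992, and 241 and 280 without TCi-HCC981. In every one of these fits, those of the 766 genes that had a value kept their direction. With the mouse as a replicate block in a fit of each tumor against its own liver, 231 genes were higher and 271 lower, with 301 shared, and 764 of the 766 kept their direction. All these fits reuse tumors in which the 766 genes were called, so a kept direction is little evidence of stability.

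**Figure D1:**
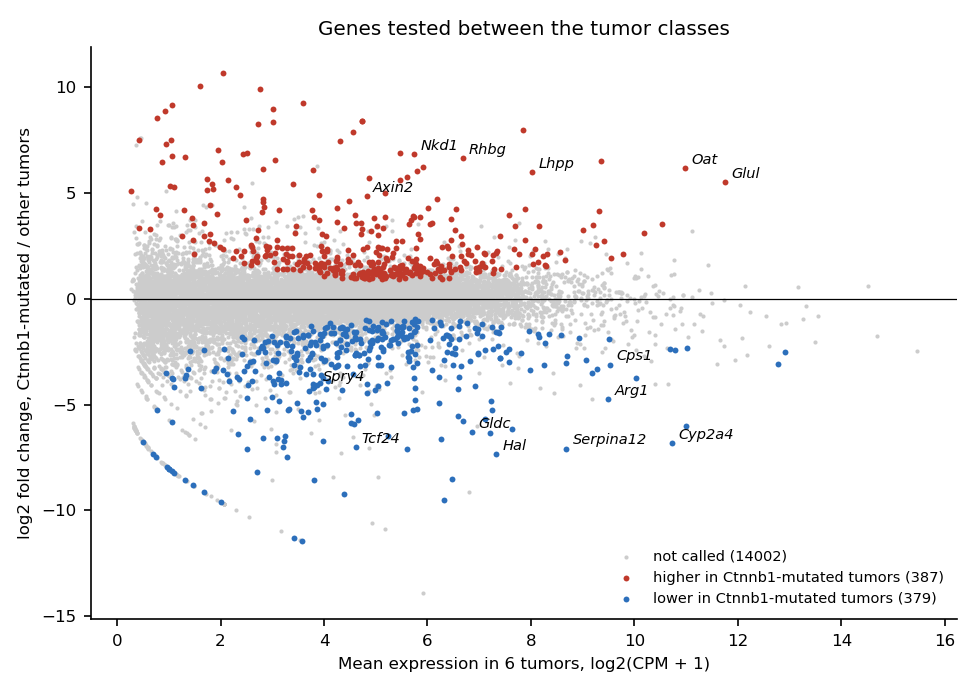
Each point is 1 of the 14768 genes tested, with the mean expression over the 6 tumors as log2(CPM + 1) on the x axis and the log2 fold change of Ctnnb1-mutated over other tumors on the y axis. The 387 higher genes are red, the 379 lower genes blue and the rest gray, and Glul and Oat stand at the upper right as abundant genes with log2 fold changes of 5.50 and 6.16.

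Glul, Axin2 and Nkd1 separated the classes without overlap. Glul (chr1:153899944-153909723 on GRCm38), which encodes glutamine synthetase, was at 9494 and 10316 CPM in the Ctnnb1-mutated tumors. In the other tumors Glul was at 140.3, 152, 149.8 and 439 CPM, and in the livers at 1092, 1179 and 1829.7 CPM. The Ctnnb1-mutated tumors were therefore above, and the other tumors below, every liver, with a log2 fold change between classes of 5.50 (SE 0.61, edgeR adjusted p = 0.00698). A processed copy, Glns-ps1, is near-identical to Glul and may share reads with it. Axin2 (chr11:108920349-108950783), a scaffold of the β-catenin destruction complex, had 81.2 and 72.9 CPM in the Ctnnb1-mutated tumors. Its values were 1.46, 3.01, 2.16 and 4.15 CPM in the other tumors and 9.86, 11.2 and 13.8 CPM in the livers, and the log2 fold change was 4.84 (SE 0.38, edgeR adjusted p = 0.00264). Nkd1 (chr8:88521354-88594884), an inhibitor that binds Dishevelled, showed the widest gap of the 3 markers, at 153 and 158 CPM against 0.756, 2.22, 1.08 and 1.36 CPM. Its livers lay between the classes at 3.26, 6.84 and 18.5 CPM, and the log2 fold change was 6.82 (SE 0.40, edgeR adjusted p = 0.00194). All 3 markers were called under each of the 13 alternative settings, with adjusted p-values of at most 0.0352.

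Of a list of 16 Wnt feedback and target genes, 13 were tested, 11 were higher and 1 was lower, against 2.62% and 2.57% of all genes. The median log2 fold change was 3.83 against -0.02 for all genes. The secreted Wnt deacylase Notum was at 152 and 191 CPM against 5.78, 7.49, 9.19 and 12.9 CPM (log2 fold change 4.29, SE 0.34, edgeR adjusted p = 0.00264). Rnf43 and Znrf3 encode ubiquitin ligases that remove Wnt receptors from the cell surface, and Lgr5 encodes the R-spondin receptor that counteracts them. Rnf43 was at 123 and 143 CPM against 9.72, 21.2, 12.8 and 21.9 CPM, an 8.11-fold difference between the class means. Znrf3 was at 35.4 and 33.3 CPM against 6.75, 11.2, 12.8 and 13.5 CPM, a 3.11-fold difference. Lgr5 was at 34.3 and 34.1 CPM against 1.84, 1.33, 0.976 and 5.62 CPM. Hence both the ligases and the receptor that opposes them were higher in the same 2 tumors (edgeR adjusted p = 0.0075, 0.0313 and 0.0237).

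Most transcription factors of the list were higher too. Sp5, a β-catenin-induced repressor, was at 39.2 and 35.8 CPM against 0.27, 0.43, 0.103 and 1.48 CPM, a 65.8-fold difference between the means. Tbx3 was at 141 and 137 CPM against 3.51, 8.24, 2.72 and 24.1 CPM. Tcf7, which encodes a TCF/LEF factor, was at 20.5 and 21.4 CPM against 4.05, 7.88, 4.47 and 3.98 CPM. Lef1, which encodes another, was close to absent outside the Ctnnb1 class. It had 7.62 and 5.74 CPM there, at most 0.462 CPM in the other tumors and at most 0.376 CPM in the livers (edgeR adjusted p = 0.0358). Tnfrsf19, a receptor of the TNF family, was at 67.3 and 32.2 CPM against 1.89, 5.59, 3.08 and 8.97 CPM (edgeR adjusted p = 0.0255). Sox9, a factor of bile duct and progenitor cells, was the member that was lower. It had 2.43 and 3.02 CPM in the Ctnnb1-mutated tumors, 29.5, 21.9, 56.3 and 21.6 CPM in the other tumors and 7.05, 8.95 and 14.7 CPM in the livers (log2 fold change -3.56, SE 0.52, edgeR adjusted p = 0.0168). Bambi was not called, and Apcdd1, Dkk4 and Wif1 were too low to be tested. The count of 11 fell to 4 without T-HCC662, 5 without T-HCC663, 7 without T-HCC941, 6 without T-HCA992, 7 with the mouse as a replicate block and 3 with genotype as a covariate, while it was 10 within p21+/Tert tumors.

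**Figure D2:**
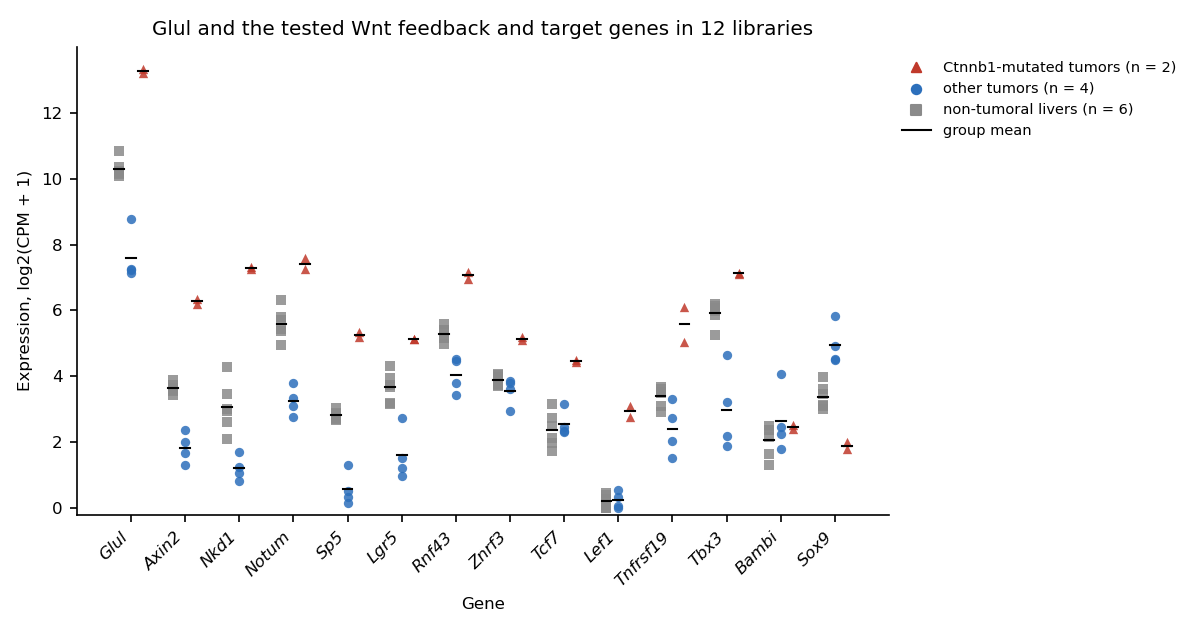
Expression of Glul and of the 13 tested Wnt feedback and target genes as log2(CPM + 1) on the y axis, 1 column per gene, with triangles for the 2 Ctnnb1-mutated tumors, circles for the 4 other tumors, squares for the 6 non-tumoral livers and bars for the group means. For Glul, Axin2, Nkd1, Notum, Sp5 and Lgr5 the 3 groups stand in the order other tumors, livers, Ctnnb1-mutated tumors, whereas Sox9 is lowest in the Ctnnb1 class.

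Promoter windows of the called genes were searched for the core TCF/LEF motif CTTTGAT or its reverse complement ATCAAAG, on both strands, from 250 bases before to 50 bases after the RefSeq start. The motif was found for 13 of 277 higher genes with a window (4.69%), for 6 of 266 lower genes (2.26%) and for 347 of 10918 tested genes (3.18%). Of the 8 Wnt feedback genes with a window, 2 held it (Sp5 and Tnfrsf19), and the available windows of Glul, Axin2 and Nkd1 did not hold these letters. Among the other genes named here whose windows were examined singly, the motif was found for Hal and Serpina12. Both were lower in the Ctnnb1-mutated tumors and are described further on. Windows were not examined singly for every gene named here, so other named genes may also hold the motif. The 4 windows are shown because they carry the motif in genes of both directions. They are RefSeq sequences on GRCm38.p6, read 5′ to 3′ on the strand of the gene, with the motif in capitals.
Sp5 (chr2:70474673-70474972, plus strand): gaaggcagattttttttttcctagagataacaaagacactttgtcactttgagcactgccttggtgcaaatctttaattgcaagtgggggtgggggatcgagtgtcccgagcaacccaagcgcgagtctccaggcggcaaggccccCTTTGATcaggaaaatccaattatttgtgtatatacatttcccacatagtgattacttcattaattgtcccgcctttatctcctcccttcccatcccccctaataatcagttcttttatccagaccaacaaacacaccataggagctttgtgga
Tnfrsf19 (chr14:61037938-61038237, minus strand): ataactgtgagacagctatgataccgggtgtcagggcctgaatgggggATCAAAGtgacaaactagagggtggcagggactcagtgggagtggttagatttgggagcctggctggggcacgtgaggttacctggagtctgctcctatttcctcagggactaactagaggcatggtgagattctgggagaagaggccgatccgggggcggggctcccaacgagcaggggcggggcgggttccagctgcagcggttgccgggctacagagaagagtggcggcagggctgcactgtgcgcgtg
Hal (chr10:93488518-93488817, plus strand): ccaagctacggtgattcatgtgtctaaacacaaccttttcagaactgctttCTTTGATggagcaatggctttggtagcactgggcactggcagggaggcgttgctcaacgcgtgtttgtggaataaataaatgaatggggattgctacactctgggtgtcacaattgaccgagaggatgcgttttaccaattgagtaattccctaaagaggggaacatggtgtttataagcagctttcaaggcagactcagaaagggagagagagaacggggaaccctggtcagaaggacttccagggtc
Serpina12 (chr12:104044394-104044693, minus strand): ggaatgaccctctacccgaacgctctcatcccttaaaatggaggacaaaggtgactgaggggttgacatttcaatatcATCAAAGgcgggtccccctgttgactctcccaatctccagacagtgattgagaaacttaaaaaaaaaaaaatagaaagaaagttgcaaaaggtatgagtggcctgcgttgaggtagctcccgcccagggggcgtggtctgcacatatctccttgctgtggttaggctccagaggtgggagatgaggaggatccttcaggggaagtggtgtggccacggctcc
Relative to the start, the motif began at -104 in Sp5, -202 in Tnfrsf19, -199 in Hal and -172 in Serpina12. The Tnfrsf19 window belongs to 1 of 2 listed starts, and the other window held no match. A match is a stretch of letters and no measure of binding.

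The machinery of the pathway did not separate the classes in the way its targets did. Of 29 tested genes of the core pathway (receptors, destruction complex, TCF partners), 0 were higher and 1 was lower, with a median log2 fold change of -0.36. Over all genes 2.62% were higher and 2.57% lower. Ctnnb1 itself was at 232 and 212 CPM in the mutated tumors and at 255, 372, 399 and 339 CPM in the others (edgeR adjusted p = 0.247). The lower gene was Pygo1, an adaptor of the β-catenin complex, which had no reads in either Ctnnb1-mutated tumor and 2.43, 0.788, 2.52 and 1.19 CPM in the others. Against a floor of 3 counts per library it was at least 13-fold lower, and it was called in 6 of the 13 alternatives. Of 11 tested Wnt ligands and secreted modulators, 2 were higher. Wnt4 was at 5.18 and 6.97 CPM against 0.432, 0.896, 1.13 and 1.48 CPM (edgeR adjusted p = 0.0392). Sfrp2, a secreted Wnt-binding protein, had 3.06 and 15.6 CPM in the Ctnnb1-mutated tumors and no reads in any other tumor, and was at least 62.9-fold higher against the same floor. Both calls were lost without T-HCC662, T-HCC663, T-HCC941 or T-HCA992 and with genotype as a covariate, and the count was 1 without TCi-HCC981, within p21+/Tert tumors and with the mouse as a replicate block.

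The pericentral program was divided between the classes. All 25 listed pericentral genes were tested, and 11 were higher and 0 lower in the Ctnnb1-mutated tumors, against 2.62% and 2.57% of all genes. All 25 had a positive log2 fold change, with a median of 2.66. Rhbg (chr3:88242874-88254709), an ammonium transporter, had the smallest p of all genes, and a gene model (Gm38392) is near-identical to it. It was at 322 and 276 CPM against 2.65, 2.97, 3.18 and 3.41 CPM, with livers at 7.8, 11.3 and 17.5 CPM (log2 fold change 6.62, SE 0.25, edgeR adjusted p = 0.000132). Oat, which makes glutamate from ornithine, was at 7784 and 3944 CPM against 68, 43.4, 36.2 and 183 CPM. Slc1a2, a glutamate transporter, was at 2323 and 1535 CPM against 11.4, 5.45, 1.8 and 66.7 CPM, where TCi-HCA984 was the nearest of the other tumors (edgeR adjusted p = 0.0362). Lhpp, a phosphohistidine phosphatase, was at 964 and 548 CPM against 9.12, 6.7, 11.1 and 21.1 CPM. For each of these 4 genes the livers lay between the classes, so the other tumors were below liver as well as the Ctnnb1-mutated tumors above it. Slc13a3, a dicarboxylate transporter, was at 225 and 228 CPM against 21.8, 25.6, 15.4 and 32.1 CPM (log2 fold change 3.26, SE 0.30, edgeR adjusted p = 0.00426). Gulo, the last enzyme of vitamin C synthesis, Rgn, Lect2, Avpr1a and Cyp27a1 completed the calls.

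The classical pericentral cytochromes P450 were not called. Cyp2e1, which oxidizes ethanol and small solvents, was at 5841 and 5058 CPM in the Ctnnb1-mutated tumors, inside the liver range of 4044 to 6378 CPM. In the other tumors it had 233, 234, 75.7 and 1872 CPM (edgeR adjusted p = 0.125). Cyp1a2 was at 752 and 657 CPM against 33.5, 45.8, 333 and 19.4 CPM (edgeR adjusted p = 0.151). The classes did not overlap for Cyp2e1 or Cyp1a2, but the spread among the other tumors was wide, with TCi-HCA984 nearest to liver for Cyp2e1 and TCi-HCC981 for Cyp1a2. Over the pericentral list, the score of a tumor (median log2 difference from the mean of the livers, with 1 CPM added) was 1.23 in T-HCC662 and 0.61 in T-HCC663. It was -3.10, -2.66, -3.14 and -1.52 in the other tumors, and the SD of the livers was 0.27. The count of 11 was 6 without T-HCC662 and also 6 without T-HCC663, 4 with genotype as a covariate and 15 within p21+/Tert tumors.

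The called periportal genes lay in the opposite direction. Of 25 tested, 11 were lower and 0 were higher in the Ctnnb1-mutated tumors, against 2.57% and 2.62% of all genes. The median log2 fold change of the list was -2.11. Gldc (chr19:30098447-30175429), the decarboxylase of the glycine cleavage system, was at 2.48 and 1.88 CPM against 116, 204, 218 and 149 CPM. Its livers were at 76.7, 118 and 239 CPM, so only the Ctnnb1-mutated tumors left the liver range (log2 fold change -6.29, SE 0.46, edgeR adjusted p = 0.00264). Sdsl and Sds encode enzymes that degrade serine and threonine. Sdsl was at 0.27 and 0.394 CPM against 24.2, 14.7, 11.5 and 15.7 CPM, and Sds at 6.22 and 0.964 CPM against 114, 59.2, 99.2 and 160.4 CPM. Cyp2f2, a P450 used as a periportal marker, was at 3.38 and 1.93 CPM against 352, 356, 100.2 and 71.3 CPM. Hsd17b13, a lipid droplet enzyme, was at 73 and 69.2 CPM, below the livers (192 to 453 CPM), and at 1378, 731, 524 and 681 CPM in the other tumors, above them. Aldh1b1, a mitochondrial aldehyde dehydrogenase, had 5.54 and 6.14 CPM against 306, 245, 244 and 104 CPM. Periportal scores were -2.41 and -2.50 in the Ctnnb1 class and -0.42, -0.95, -0.48 and -0.52 in the others, with a liver SD of 0.37. Thus the pericentral list separated the classes mainly through the other tumors, and the periportal list mainly through the Ctnnb1-mutated ones. The count of 11 was 4 without T-HCC662, 6 without T-HCC663 and 9 with genotype as a covariate.

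**Figure D3:**
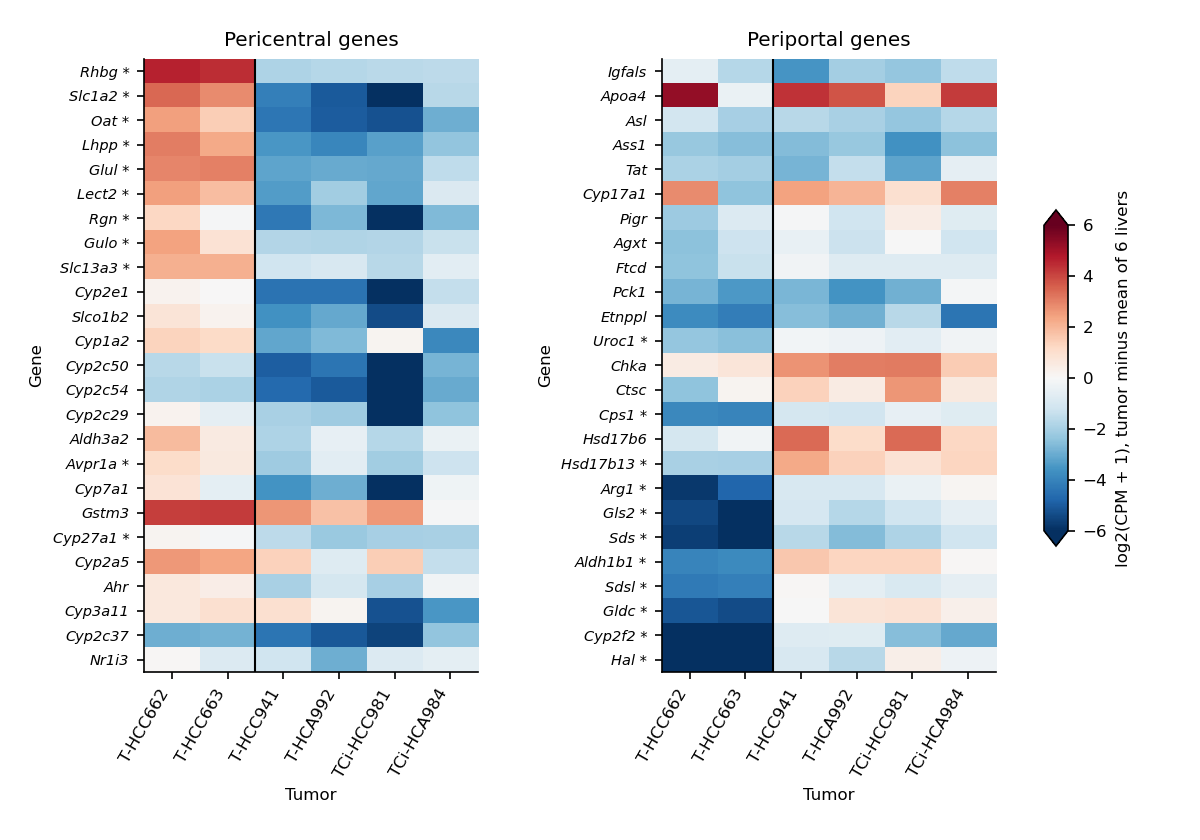
Heat maps of 25 pericentral (left) and 25 periportal (right) genes in the 6 tumors, with color for log2(CPM + 1) of the tumor minus the mean of the 6 livers, limited to 6 in either direction, asterisks for called genes and a vertical line after the 2 Ctnnb1-mutated tumors. Called pericentral genes are mostly red on the left of the line and blue on its right, and the called periportal genes are blue on the left.

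Within nitrogen metabolism the differences lay at both ends of the urea cycle. Of 23 tested genes, 1 was higher and 4 were lower, against 2.62% and 2.57% of all genes. The 4 (Cps1, Arg1, Hal and Uroc1) are also among the periportal genes above. The 4 became 1 without T-HCC662 and 2 without T-HCC663, and the higher gene was not called without T-HCC662, T-HCC663, T-HCC941 or T-HCA992, with genotype as a covariate or with the replicate block, where 6 were lower. Cps1, the entry enzyme of the urea cycle, was at 125 and 117 CPM against 888, 849, 1337 and 1137 CPM, with livers at 721, 2006 and 2954 CPM (log2 fold change -3.11, SE 0.40, edgeR adjusted p = 0.00998). Arg1, the arginase that releases urea, was at 25.4 and 52.6 CPM against 756, 758, 1121 and 1601 CPM (log2 fold change -4.75, SE 0.61, edgeR adjusted p = 0.0102). The enzymes between them were not called: Otc was at 84.4 and 78.3 CPM against 86.4, 55.2, 56.4 and 127 CPM, and Ass1 at 75.6 and 62.8 CPM against 60.6, 76.9, 29.6 and 67.7 CPM. For both, all 6 tumors were below every liver. Histidine breakdown was lower at its first 2 steps. Hal, histidine ammonia-lyase, was at 1.71 and 1.23 CPM against 166, 100.5, 421 and 264 CPM, a 162-fold difference between the means (edgeR adjusted p = 0.00689). Uroc1, urocanate hydratase, was at 103 and 90.4 CPM against 458, 424, 334 and 448 CPM. Gls2, the liver glutaminase, was at 9.51 and 5.87 CPM against 228, 141, 200.1 and 313 CPM (log2 fold change -4.83, SE 0.49, edgeR adjusted p = 0.00531), so that the enzyme making glutamine was higher and the one hydrolyzing it lower in the same tumors. Prodh, proline dehydrogenase, was the higher gene, at 382 and 619 CPM against 38.9, 19.7, 11 and 61.5 CPM.

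Among 27 amino acid transporters, 3 were higher and 2 lower, against 2.62% and 2.57% of all genes. The median log2 fold change of the list was -0.11. Slc1a5, a glutamine transporter, was at 112 and 187 CPM against 11.6, 8.6, 14 and 7.1 CPM, above every liver (log2 fold change 3.87, SE 0.34, edgeR adjusted p = 0.00318). Slc16a10, an aromatic amino acid carrier, was at 179.9 and 222 CPM against 24.6, 28.4, 22.2 and 44.6 CPM. Its livers spanned 72.7 to 227 CPM, so the other tumors were the ones outside the liver range. Slc7a5 was also higher, at 6.8 and 12.4 CPM against 2.38, 3.44, 3.29 and 2.27 CPM, but was called in 3 of the 13 alternatives. Slc3a1 and Slc1a1 were lower, and both overlap or resemble a gene on the other strand (Prepl and 4430402I18Rik), with which reads may be shared. The lower count was 0 without T-HCC663 or T-HCC941, with genotype as a covariate, within p21+/Tert tumors and with the replicate block, and 1 without T-HCC662 or T-HCA992.

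Of 29 phase II genes, 3 were higher and 0 lower, but with the mouse as a replicate block 2 were higher and 2 lower. Gstm2, a glutathione transferase, was at 654 and 381 CPM against 46.1, 43.5, 51.2 and 53 CPM (log2 fold change 3.42, SE 0.29, edgeR adjusted p = 0.00318), and Gstm6 and the sulfotransferase Sult1b1 were the others. Of 20 bile acid genes, 2 were higher and 2 lower. Cyp27a1, which starts the alternative pathway of bile acid synthesis, was at 648 and 544 CPM against 189.7, 120.1, 144 and 145 CPM. Cyp8b1, the sterol hydroxylase that makes cholic acid, was at 8.61 and 3.11 CPM against 46.5, 85.6, 26.2 and 59.4 CPM, and all 6 tumors were at or below 85.6 CPM where the liver median was 294 CPM. Slco1a4, a bile acid importer, was higher and Cyp39a1 lower (edgeR adjusted p = 0.0492 and 0.0286). Over all genes 2.62% were higher and 2.57% lower. The bile acid calls became 0 in both directions without T-HCC662, without T-HCC663 and with genotype as a covariate, 1 higher and 0 lower without T-HCC941, 1 and 1 without T-HCA992, 2 and 1 without TCi-HCA984, and 0 and 1 with the mouse as a replicate block. The 3 phase II calls became 1 without T-HCC662, without T-HCA992 and with genotype as a covariate, and 2 with the replicate block and without T-HCC663 or T-HCC941.

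Some sex-biased liver genes were called, where 2.62% of all genes were higher and 2.57% lower. Of 15 male-biased genes, 2 were higher and 1 lower, and of 15 tested female-biased genes, 0 were higher and 2 lower. Cyp2a4, a female-biased testosterone hydroxylase, was at 16.4 and 28 CPM against 2385, 2314, 2773 and 2627 CPM. The livers were at 0.682, 4.86 and 19.1 CPM, so it was an abundant transcript in the 4 other tumors alone (log2 fold change -6.82, SE 0.55, edgeR adjusted p = 0.00264). Cyp2a5 is near-identical to Cyp2a4 and may share reads, but it lay in the other direction, at 3659 and 3037 CPM against 1561, 349.8, 1642 and 224 CPM (edgeR adjusted p = 0.191). Cyp2b9 was at 0 and 0.307 CPM against 44.3, 162, 42.8 and 227 CPM. The male-biased fatty acid hydroxylase Cyp4a12b was at 159 and 161 CPM against 3.29, 1.18, 0.873 and 4.54 CPM (edgeR adjusted p = 0.00531), and its near-identical neighbor Cyp4a12a at 162 and 179 CPM against 7.99, 8.21, 3.95 and 38.6 CPM. Mup21, which resembles Mup3, was lower. Without T-HCC662 or without T-HCC663, 1 male-biased gene was higher and 0 were lower, and 1 female-biased gene was lower. With the replicate block 1 male-biased gene was higher and 3 were lower, and Cyp2b9 was not called (edgeR adjusted p = 0.307).

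Of the 12 higher genes of smallest p, several are outside the lists. Cln6, an endoplasmic reticulum protein whose loss causes a lysosomal storage disease, was at 95.1 and 165 CPM against 9.77, 10.4, 10.3 and 10.2 CPM, with livers at 4.7, 8.17 and 15 CPM. The other tumors were therefore within the liver range and nearly equal to each other (log2 fold change 3.69, SE 0.26, edgeR adjusted p = 0.00264). Ccdc85b was at 223 and 232 CPM against 24.2, 16.2, 14.1 and 13.6 CPM. It overlaps Fosl1 on the other strand, which was at 3.97 and 3.11 CPM in the Ctnnb1-mutated tumors. Fitm1, a lipid droplet protein, and Csrp2, a LIM-domain protein, had the 3-level order of Glul. Fitm1 was at 297 and 208 CPM, against 16.6, 14.9, 8.42 and 14.6 CPM in the other tumors and 50.1 to 159 CPM in the livers. Csrp2 was at 247 and 154 CPM against 5.29, 10.3, 5.08 and 10.8 CPM, with 24.4 to 37.5 CPM in the livers. Sh2d7 was low in all groups, at 13.1 and 6.66 CPM against at most 0.251 CPM.

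The 12 lower genes of smallest p differed in where the livers stood. Aspg, Mn1 and Gldc were inside the liver range in the other tumors and below it in the Ctnnb1 class. Aspg, an asparaginase, was at 3.6 and 4.51 CPM against 417, 235, 277 and 247 CPM, with livers at 175, 458 and 774 CPM (log2 fold change -6.17, SE 0.45, edgeR adjusted p = 0.00264). Mn1, a transcriptional coregulator, was at 1.26 and 1.31 CPM against 21.9, 23.9, 17.2 and 19.4 CPM. Sdsl, given above, was also inside the liver range in the other tumors, and Raet1e is described below. The remaining 7 were above every liver in all of the other tumors. Serpina12, the serpin vaspin, was at 6.13 and 2.89 CPM against 553, 717, 715 and 467 CPM, and its livers at 37.2, 58.5 and 119 CPM lay between (log2 fold change -7.08, SE 0.57, edgeR adjusted p = 0.00264). Tcf24, a basic helix-loop-helix factor, was at 0.135 and 0.394 CPM against 33.7, 43.5, 36 and 26.8 CPM, with at most 2.9 CPM in a liver. Igdcc4, an immunoglobulin-family membrane protein, was at 1.49 and 1.71 CPM against 83.8, 45.1, 60.4 and 83.1 CPM. Sgsm1 and Itih5 had the same pattern, with 0.451 and 0.745 CPM against 59.7, 45.8, 79.7 and 34.5 CPM for Sgsm1 and 9.19 and 10.5 CPM against 169, 171, 228 and 130.0 CPM for Itih5. Golm1, a Golgi protein known as a serum marker of liver cancer, was at 7.89 and 11.6 CPM against 62.5, 73, 74.2 and 64.9 CPM, where the highest liver had 11.7 CPM. With the mouse as a replicate block Igdcc4 had a log2 fold change of -2.66 and Golm1 of -1.57, and neither was called (edgeR adjusted p = 0.658 and 0.324). Igdcc4 was also not called with all 12 libraries in 1 model (edgeR adjusted p = 0.0698).

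**Figure D4:**
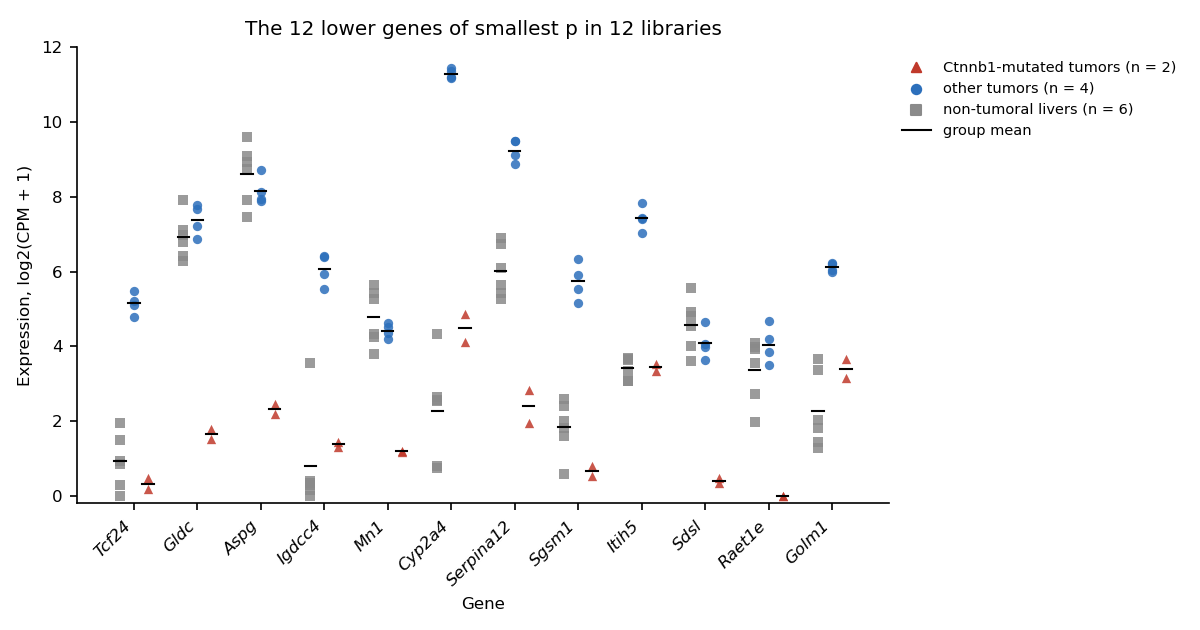
The 12 lower genes of smallest p, as log2(CPM + 1) on the y axis, with triangles for the 2 Ctnnb1-mutated tumors, circles for the 4 other tumors, squares for the 6 non-tumoral livers and bars for group means. Cyp2a4, Serpina12, Tcf24, Sgsm1 and Itih5 are far above liver in the other tumors, whereas Gldc, Aspg, Mn1 and Sdsl are near liver there and lower in the Ctnnb1 class.

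Raet1e, which encodes a ligand of an activating NK cell receptor, had no reads in either Ctnnb1-mutated tumor. It was at 10.3, 24.4, 13.3 and 17.2 CPM in the other tumors and at 2.97, 12.5 and 16 CPM in the livers, and was at least 122-fold lower against a floor of 3 counts per library (edgeR adjusted p = 0.00478). It overlaps Raet1d and H60b on the same strand, and reads of these related ligands may be shared. It was the 1 gene called among 10 tested ligands of NK and T cell receptors, where 2.57% of all genes were lower.

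Some targets of ERK signaling were lower in the Ctnnb1 class. Of 20 tested, 0 were higher and 6 lower, against 2.62% and 2.57% of all genes. A positive log2 fold change was seen for 4, and the median over the list was -1.36. Spry4, a feedback inhibitor of receptor tyrosine kinases, was at 1.44 and 0.876 CPM against 18.4, 10.9, 27.3 and 22 CPM (log2 fold change -4.07, SE 0.51, edgeR adjusted p = 0.00922). Dusp5, an ERK phosphatase, was at 0.36 and 1.23 CPM against 11.8, 8.31, 20.2 and 6.3 CPM. Egr1, Spred1, Spred2 and Etv5 were the others, but Dusp6, the ERK phosphatase most used as a readout, was not called, at 98 and 68.4 CPM against 101, 148, 121 and 149 CPM. Scores of the list were 0.08 and 0.18 in the Ctnnb1-mutated tumors, and 1.09, 1.03, 1.44 and 1.37 in the others, with a liver SD of 0.17. The scores were therefore also high in T-HCA992 and TCi-HCA984, in which the study found no Egfr or Hras mutation. The count of 6 was 0 without T-HCC662, 1 without T-HCC663, without T-HCC941, without T-HCA992, with genotype as a covariate and within p21+/Tert tumors, and 3 without TCi-HCC981, without TCi-HCA984 and with the mouse as a replicate block. Egfr was at 50.7 and 48.8 CPM in the Ctnnb1-mutated tumors, below every liver, and at 162, 610.3, 199 and 199 CPM in the others (edgeR adjusted p = 0.0618). Hras was at 79.9 and 75.1 CPM against 68.9, 60.6, 46 and 37.8 CPM (edgeR adjusted p = 0.255). Of 28 tested kinase and growth factor genes, only Fgfr2 was called, where 2.57% of all genes were lower. Fgfr2 was at 0.36 and 3.99 CPM against 55.8, 64.2, 112 and 93.1 CPM (edgeR adjusted p = 0.0274), and was called in 9 of the 13 alternatives.

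Of 14 tested oncofetal genes, 3 were lower and 0 higher, and the median log2 fold change was -2.98. For this list and those that follow here, the shares over all genes were 2.57% lower and 2.62% higher. Besides Golm1 the lower oncofetal genes were Cbr3, a carbonyl reductase, and Tspan8, a tetraspanin. Tspan8 was at 0.0451 and 2.19 CPM against 154, 28.1, 221 and 50.7 CPM. The count of 3 was 1 without T-HCC662, T-HCC663, T-HCC941 or TCi-HCC981 and with the mouse as a replicate block, and 2 without T-HCA992 or TCi-HCA984. Afp, the fetal albumin-like protein, was at 11.9 and 12.2 CPM against 235, 116, 52.9 and 28.9 CPM, above all livers in all 6 tumors but not called (edgeR adjusted p = 0.0719). H19 was at 60.5 and 4.21 CPM against 2076, 17.2, 1317 and 7.72 CPM, which overlap. Of 16 p53 targets, Btg2 was lower, at 31.9 and 24.5 CPM against 143, 172, 155 and 225 CPM, and Gdf15 higher by a factor of 1.88 but called in 2 of the 13 alternatives. Neither was called without T-HCC662, without T-HCC663 or with the replicate block. Cdkn1a, whose promoter drives the transgene, was at 38.9 and 32.9 CPM against 81, 74.2, 72.8 and 52.8 CPM (edgeR adjusted p = 0.068), and Tert at 7.98 and 4.69 CPM against 9.39, 26.1, 15.8 and 16.9 CPM (edgeR adjusted p = 0.108). The classes did not overlap for either gene, and neither was called. Notch2 and Heyl were lower among 13 tested Notch genes, and Prox1 was lower and Tbx3 higher among 18 hepatocyte transcription factors, where 2.57% and 2.62% of all genes were lower and higher. The Notch calls became 0 without T-HCC662, T-HCC663, T-HCC941, T-HCA992 or TCi-HCA984, with genotype as a covariate and within p21+/Tert tumors, and 1 without TCi-HCC981 and with the replicate block. Prox1 was called in 3 of the 13 alternatives, and under the block its log2 fold change was -0.14 (edgeR adjusted p = 0.819). Of 21 acute-phase genes, Fga, Apcs and Steap4 were lower, but the livers also varied widely for them, with Fga at 3811 to 21733 CPM. These 3 calls became 0 without T-HCC662, T-HCC663 or T-HCC941, with genotype as a covariate and with the mouse as a replicate block, where Steap4 had a log2 fold change of -0.29 (edgeR adjusted p = 0.787). They became 1 without T-HCA992 or TCi-HCC981 and within p21+/Tert tumors, and 2 without TCi-HCA984.

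Some markers of vessels, stroma and bile ducts were called lower, and no gene of the immune cell lists was called. Over all genes, 2.62% were higher and 2.57% lower. Klrb1b, known as an NK cell receptor gene but outside these lists, was called lower and is given under other observations. Of 16 endothelial genes, 4 were lower and 1 higher, at a median log2 fold change of -1.17 and a summed level of 269.7 and 363 CPM in the Ctnnb1 class, 410.5 to 629 CPM in the other tumors and 130.3 to 456 CPM in the livers. Cdh5, the endothelial cadherin, was at 15.8 and 10.2 CPM against 47.2, 48.2, 60 and 48.6 CPM, and Pecam1 at 15.1 and 13.3 CPM against 39.6, 35.9, 43.6 and 40.9 CPM (edgeR adjusted p = 0.014 and 0.0168). Kdr and Plvap were also lower. Esam, an endothelial adhesion molecule, was higher, at 68 and 59.4 CPM against 19.4, 18.4, 22.3 and 22.1 CPM, above every liver (edgeR adjusted p = 0.0084). Of 15 stellate cell and fibroblast genes, 4 were lower (Pdgfra, Pdgfrb, Rgs5 and Reln) and all 15 had a negative log2 fold change, with a median of -2.08. The sums were 50 and 116 CPM in the Ctnnb1-mutated tumors, 219 to 504 CPM in the others and 83.3 to 335 CPM in the livers. Of 10 tested cholangiocyte genes, 3 were lower (Sox9, Tff3 and Cldn7), with sums of 32.4 and 62.3 CPM against 146 to 1159.8 CPM in the others and 76 to 169.6 CPM in the livers. Most of the highest sum was Spp1, which is also on the macrophage list and was not called (edgeR adjusted p = 0.173). Spp1 was at 13.9 and 30.5 CPM against 383, 1037, 4.16 and 261 CPM, with livers at 38.6 to 113 CPM. The defining keratins Krt7 and Krt19 were at or below 1.26 CPM in all 6 tumors and at 0 in TCi-HCC981. These vessel and stroma calls rested on few libraries. No endothelial gene stayed lower without T-HCC662, without T-HCC663 or with genotype as a covariate. The 4 stellate calls became 0 without T-HCA992, with genotype as a covariate and within p21+/Tert tumors. They became 2 without T-HCC941, TCi-HCC981 or TCi-HCA984. The median log2 fold change of the stellate list was -1.59 without T-HCC662 and -2.73 without T-HCC663. The 3 cholangiocyte calls became 0 without T-HCC662, without T-HCC663 and with genotype as a covariate, and 1 without T-HCA992. The part of these cells in the class differences was not tested.

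Of 20 macrophage, 21 T and NK cell, 8 B cell, 12 dendritic cell, 5 neutrophil and 5 erythroid genes tested, 0 were called in either direction. With 2.62% of all genes higher and 2.57% lower, lists of these sizes would hold few calls in any case. Macrophage genes differed more between the 2 Ctnnb1-mutated tumors than between the classes, with sums of 429 and 1646 CPM in that order and of 585 to 1889.7 CPM in the others. T and NK cell genes summed to 18.3 and 48.3 CPM in the Ctnnb1 class and to 7.38 to 82.7 CPM in the others. Cd8a was at 2.16 and 3.24 CPM against 13.9, 1.47, 5.03 and 0.738 CPM. Levels as low as these limit what 2 tumors against 4 can show. Hepatocyte transcripts were present in all tumors, Serpina1c was lower, and the 15 listed genes summed to 36745 CPM in T-HCC663 and 63686 CPM in T-HCC662. They summed to 151467 to 168018 CPM in the other tumors and 74522 to 100889 CPM in the livers. Albumin (Alb), the most abundant plasma protein, was at 16621 and 5982 CPM against 72143, 68209, 61589.7 and 47664 CPM (edgeR adjusted p = 0.0873). Its part in the other differences was not tested.

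**Figure D5:**
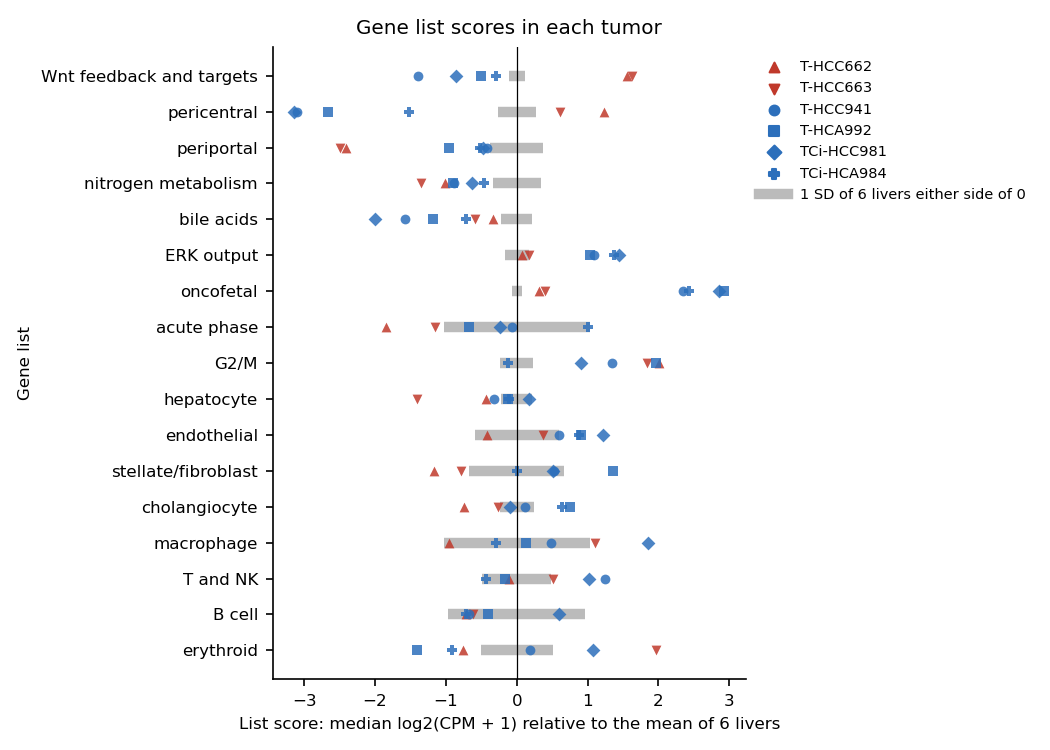
Scores of 17 gene lists in each tumor, as the median log2(CPM + 1) of the list relative to the mean of the 6 livers, with red triangles for the Ctnnb1-mutated tumors, blue symbols for the other tumors and gray bars for 1 SD of the 6 livers on either side of 0. The classes stand apart for the Wnt, pericentral, periportal, ERK output and oncofetal lists, and mix for the T and NK, B cell and erythroid lists.

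Several programs held no called gene. Of 54 G2/M genes, 0 were called, although 48 had a positive log2 fold change and the median was 0.78. Their scores were 2.01 and 1.84 in the Ctnnb1-mutated tumors, 1.35, 1.97 and 0.91 in T-HCC941, T-HCA992 and TCi-HCC981, and -0.12 in TCi-HCA984. Mki67 was at 54.3 and 53.5 CPM against 29.4, 49.2, 17.9 and 3.07 CPM, and the median liver had 3.23 CPM. The lists of S phase (42 genes), lipogenesis (21), cholesterol synthesis (20), fatty acid oxidation (21), class I antigen presentation (16), interferon response (26), chemokines (27 tested) and the Y chromosome (4) also had 0 called genes. Of 27 genes of glycolysis and gluconeogenesis, Hk2 and Ldhb were higher, where 2.62% of all genes were higher. Ldhb was at 21.2 and 2.76 CPM and thus uneven within the Ctnnb1 class. Hk2 was called in 4 and Ldhb in 5 of the 13 alternatives. Of 25 NRF2 genes, only Cbr3 was called, where 2.57% of all genes were lower. Cbr3 was called in 5 of the 13 alternatives. A count of 0 in 2 tumors against 4 sets no limit on smaller differences.

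The 2 Ctnnb1-mutated tumors were not alike in every respect. Apoa4, a lipoprotein component, was at 22811 CPM in the first and 442 CPM in the second, while the other tumors had 11752, 8033, 1486 and 10654 CPM. Fmr1nb was at 79.9 CPM in T-HCC662 and had no reads in T-HCC663, and Xlr3a at 38 and 0.0438 CPM, both on the X chromosome. In the other direction, Lamc3, a laminin subunit, was at 0.225 and 64.2 CPM, Rec8, a meiotic cohesin, at 0.18 and 38.6 CPM, and Marco, a macrophage scavenger receptor, at 0 and 22.3 CPM. Hemoglobin alpha was at 84.6 and 567 CPM, and the values of Hba-a1 and Hba-a2 were identical in all libraries. With 1 library of each tumor these differences had no test. Glul, Axin2, Nkd1, Sp5, Lgr5, Rnf43, Znrf3 and Tcf7 differed by less between the 2 tumors than either did from any other tumor. These genes had been called between the classes in the same tumors, which favors a small difference within a class. Their evenness is therefore no evidence that the 2 tumors are alike. Among other called genes, Tnfrsf19 was at 67.3 and 32.2 CPM and Sfrp2 at 3.06 and 15.6 CPM.

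Chromosome-wide shifts were present in both classes. The median log2 difference from the livers over all tested genes of a chromosome, relative to the whole genome, was 0.49 for chromosome 15 in T-HCC662, 0.17 in T-HCC663 and 0.37 in TCi-HCC981. Chromosome 13 was at -0.46 and chromosome 8 at -0.29 in T-HCC941, and chromosome 1 at 0.32 in T-HCC941 and 0.43 in TCi-HCC981. In the livers no chromosome departed by more than 0.06. The higher share of chromosome 8 was 4.18% (33 of 790 genes), and the lower share of chromosome 1 was 4.53% (39 of 861), against 2.62% and 2.57% over all genes. The part of these shifts in the calls was not tested.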

How the data were processed

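RNA of 6 liver tumors and of 6 non-tumoral livers was sequenced as poly(A)-selected paired-end libraries. The authors removed reads of low quality, aligned reads to mm10 with the mCherry sequence added using Subread, and deposited raw read counts per gene from featureCounts 1.6.4, 1 table per sample with 24421 genes in each. The annotation release, the use of strand, the treatment of multi-mapping reads and the sequencing run of each sample were not given in the sources used here.

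The class of each tumor came from the exome results of the study. Members, gene lists and tests were chosen with earlier results of these data known. Counts were analyzed in R 4.3.3 with edgeR 4.0.16 (TMM scaling, filterByExpr, quasi-likelihood F test) on the 6 tumors, with Benjamini-Hochberg adjustment over the 14768 genes that passed the filter. In counts simulated for this comparison with 14497 genes tested, 39 of 100 genes changed 4-fold and 89 of 100 changed 16-fold were called, with 5 false calls. List scores used log2(CPM + 1). Genes were named by rule: Glul, the Wnt feedback genes and 5 design genes (Tert, Cdkn1a, Ctnnb1, Egfr and Hras), the 12 genes of smallest p in each direction, up to 4 called genes of each list (or its 2 most abundant where fewer than 2 were called), and the 5 genes in each direction that differed most between T-HCC662 and T-HCC663. Other genes were named after their values were seen, and some genes are not reported here. Alternatives were DESeq2 1.42.0, RLE scaling, no filter, all 12 libraries, genotype as a covariate, p21+/Tert tumors only, the mouse as a replicate block, each tumor left out, and a pseudocount of 0.1 CPM. Positions are from GENCODE on GRCm38. Near-identical genes were found with minimap2 2.31 (identity of at least 0.95 over at least 300 bases).

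Tumor and liver of a mouse were paired by the labels, except that the liver of mouse 662 was assigned by elimination, since the label of that library gives a number of no tumor mouse. Correlations of the paired libraries' deviations from their group means were 0.091, 0.019, 0.222, 0.337, 0.435 and 0.397 for mice 662, 663, 941, 992, 981 and 984.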

Additional observations from a re-analysis of the deposited data

Results flagged for a closer look

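For the 113 genes whose values are given, 214 groups of 4 or 6 samples were searched for a sample far from the rest by Dixon's test on log2(CPM + 1), and 20 held one, where chance alone gives about 1 in 20 groups. Among the other tumors, TCi-HCA984 stood apart for Glul (439 CPM against 140.3 to 152), Xlr3a (5.57 CPM against 0.107 to 0.378) and Gstm6 (44.5 CPM against 95.7 to 105). T-HCA992 stood apart for Egfr (610.3 CPM against 162 to 199), Tcf7 (7.88 CPM against 3.98 to 4.47) and Fosl1 (2.54 CPM against 0.462 to 0.54). TCi-HCC981 stood apart for Cdh5 (60 CPM against 47.2 to 48.6) and Fmr1nb (1.9 CPM against 0 to 0.114).

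Among the livers, the one from the mouse of TCi-HCA984 stood apart for 8 genes. It was low for Oat (649.8 CPM), Cyp1a2 (50.3 CPM), Cps1 (721 CPM), Ass1 (89.4 CPM), Gstm6 (33.8 CPM) and Cyp27a1 (243 CPM). It was high for Igdcc4 (10.7 CPM) and Apoa4 (9506 CPM). The liver of the mouse of T-HCC941 was high for Glul (1829.7 CPM) and Slc7a5 (8.42 CPM), and that of the mouse of T-HCC663 low for Tbx3 (37.3 CPM) and high for Tff3 (15.9 CPM). The tumor class comparison used no liver, but statements that a tumor lay inside or outside the liver range rest on these libraries.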

How the results depend on the processing

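With 2 tumors in 1 class, the share of tested genes called higher and lower, 2.62% and 2.57%, depended on the model. The shares were 6.12% and 5.7% with all 12 libraries in 1 model, 6.66% and 9.93% with DESeq2, 1.26% and 1.47% within p21+/Tert tumors and 0.339% and 0.555% with genotype as a covariate. With the mouse as a replicate block they were 1.52% and 1.79%. Leaving out 1 tumor gave 0.323% to 1.99% higher and 0.258% to 2.06% lower, lowest without T-HCC662. RLE scaling and no filter on low counts moved neither count by over 1.5 times. The causes were not tested, though leaving out libraries leaves fewer samples. Of 109 called genes examined singly, 28 were called under every alternative run (13, or 12 for Slc1a2), among them Glul, Axin2, Nkd1, Notum, Rhbg, Gldc and Cyp2a4, and none of the 109 changed direction. Of these 109, 62 stayed called under the replicate block and 43 with genotype as a covariate. The 109 were called in the same tumors, so their kept direction is little evidence of stability.

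The difference in list score between the classes moved by more than 1 SD of the other tumors for some lists. With a pseudocount of 0.1 CPM it was 3.02 for Wnt feedback, -0.68 for Notch, -2.98 for oncofetal, 0.21 for female-biased, -1.09 for neutrophil, -1.57 for cholangiocyte and -0.87 for kinase and growth factor genes. When each tumor was left out it ranged from -0.27 to 0.02 for amino acid transport, -0.18 to 0.21 for female-biased, -1.5 to 0.57 for macrophage, -1.32 to -0.53 for endothelial, -0.5 to 2.23 for erythroid, -1.3 to -0.34 for hepatocyte and -0.89 to -0.6 for kinase and growth factor genes. In each of these ranges the ends were the fits without T-HCC662 and without T-HCC663. Between 14571716 and 26170661 counts per library limit what can be said of genes under about 1 CPM.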

Other observations

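Some genes with large differences belong to none of the lists, and they were chosen after their values were seen. Meg3, Rian and Mirg are maternally expressed noncoding RNAs of the imprinted Dlk1-Dio3 region on chromosome 12. Meg3 was at 110.3 and 1252 CPM in T-HCC662 and T-HCC663 against 1.89, 0.681, 6.68 and 1.82 CPM in the others (in the order used above), with livers at 1.51 to 75 CPM (edgeR adjusted p = 0.0169). Rian was at 27.9 and 229 CPM against 0.81, 0.179, 3.18 and 0.227 CPM, and Mirg at 2.66 and 39.8 CPM against 0, 0, 0.0514 and 0.114 CPM. All 3 were thus higher in T-HCC663 than in T-HCC662. Meg3 was called in 10, Rian in 8 and Mirg in 9 of the 13 alternatives.

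Other genes outside the lists differed widely between the classes. Ephb2, an ephrin receptor, was at 98.9 and 13.1 CPM against 0.054, 0.717, 0.0514 and 0.341 CPM (edgeR adjusted p = 0.0133). Sema3b, a secreted semaphorin, was at 122 and 77 CPM against 5.13, 1.43, 2.57 and 3.52 CPM and was called in 13 of 13 alternatives. In the other direction, Klrb1b, known as an NK cell receptor gene, was at 0.0901 and 0.614 CPM against 139, 113, 224 and 51.4 CPM, with at most 0.882 CPM in a liver (log2 fold change -8.51, SE 1.02, edgeR adjusted p = 0.00799). Nkg7, an NK and T cell marker, was at 2.12 and 3.37 CPM against 10.2, 0.537, 6.88 and 0.398 CPM, so the T and NK cell list did not follow Klrb1b. Flt4, a receptor of lymphatic and sinusoidal endothelium, was at 3.06 and 11.2 CPM against 133, 199, 118 and 108 CPM, with livers at 5.54 to 19.7 CPM (edgeR adjusted p = 0.0168). Sfxn1, a mitochondrial serine carrier, was at 2.25 and 3.86 CPM against 74.5, 117, 142 and 236 CPM, with livers at 82.6 to 148 CPM (edgeR adjusted p = 0.00736).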
